A study of Homo sapiens with 21 samples.

Results

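Hs578T cells, a human triple-negative breast cancer (TNBC) line labelled as wild type, were treated for 8 h with the CDK12/13 inhibitor THZ531 (0.1 μM) together with either lapatinib (3.16 μM) or nilotinib (1 μM), and their polyadenylated RNA was sequenced. The comparison described here sets the 3 libraries of the lapatinib combination against the 3 of the nilotinib combination, so that both groups hold the same low dose of THZ531 and differ in the tyrosine kinase inhibitor and in its dose. These are 6 of 21 libraries. The other 15, in groups of 3, are DMSO, THZ531 (0.1 μM), lapatinib (3.16 μM) alone, nilotinib (1 μM) alone and THZ531 (1 μM), and they entered the same fit. Of 28395 genes listed, 16036 passed the filter on low counts and were tested.

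THZ531 blocks CDK12 and CDK13, kinases that phosphorylate the tail of RNA polymerase II and keep it productive along the body of a gene. Long genes, and many DNA repair genes among them, are known to depend most on this step. Lapatinib inhibits the receptor kinases EGFR and HER2 (ERBB2). Nilotinib was designed against ABL and also inhibits the PDGF receptors and the collagen receptors DDR1 and DDR2. The study asked why such unrelated kinase inhibitors both sensitise cells to THZ531. The contrast between the combinations asks what remains different at the same added dose of THZ531. The paper concludes that both inhibitors block ABCG2, a pump that exports THZ531 from cells. THZ531 inside the cells was not measured, so a difference in it cannot be told apart from other effects of the inhibitors. Since the inhibitors were used at unequal doses, the drug and its dose cannot be told apart in any value given here. All values come from 1 cell line.

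The combination libraries held 101967991 to 105119748 counts each. Levels are given as CPM, the count of a gene relative to its library total with that total corrected by TMM, and differences are given as log2 FC of the lapatinib combination over the nilotinib combination. The marker levels that follow use library totals without TMM, since some markers were not tested. In each of the 6 libraries the mesenchymal markers were high, with vimentin (VIM) at 8387 to 8775 CPM and their summed level at 19700 to 24590 CPM with lapatinib and 19820 to 23970 CPM with nilotinib. Of the epithelial markers, CDH1 stayed at 0.146 to 0.265 CPM and EPCAM at 0 to 0.0588 CPM, while the keratin KRT18 was present at 121.7 to 140.1 CPM. The oestrogen receptor ESR1 stayed at 0.0860 to 0.164 CPM and the progesterone receptor PGR at 0 to 0.0193 CPM. The luminal markers GATA3 and FOXA1 were present, at 10.1 to 16.2 CPM and 4.01 to 6.65 CPM. The blood markers CD3E and HBB had 0 counts, while PTPRC stood at 1.27 to 2.03 CPM and the endothelial marker PECAM1 at 0.272 to 0.430 CPM. Replicate 1 of both combinations stood apart from replicates 2 and 3. The chi-square per degree of freedom was 68.2 to 137 between replicate 1 and the others and 19.2 to 23.5 between replicates 2 and 3.

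The combinations differed in 235 genes, 1.47% of those tested, at an adjusted p (Benjamini-Hochberg) under 0.05 in the quasi-likelihood test of edgeR. With lapatinib 117 genes (0.73%) were higher and 118 (0.736%) lower. Most differences were small: the median absolute log2 FC of the called genes was 0.443, 143 lay under 0.5, 82 between 0.5 and 1, and 10 beyond 1. Those 10 comprised 8 higher (0.0499% of genes) and 2 lower (0.0125%). Every called gene had all 3 libraries of one combination above all 3 of the other, which was also true of 14.2% of all genes. The same direction in all 3 replicate pairs follows from this and adds no support. Among all genes, 20.2% were higher and 19.1% lower with lapatinib in all 3 pairs. Among all genes, 75.2% lay within 0.25 of no difference. In bulk RNA, a smaller share of cells expressing a gene cannot be told apart from less RNA per cell.

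The number of calls depended on which libraries set the spread. Fitted to the 6 combination libraries alone, 5 genes passed without pairing and 879 with the replicate number as a block, against 235 in the fit of all 21 libraries. With 1 combination library left out at a time, the calls numbered 358, 91 and 64 without lapatinib replicates 1, 2 and 3, and 88, 104 and 101 without nilotinib replicates 1, 2 and 3. Scaling shifted the split between higher and lower, from 117 and 118 with TMM to 100 and 206 with library size alone and 158 and 95 with the upper quartile. Taking the mitochondrially encoded mRNAs as the reference left 10 and 12. In each of these fits, every one of the 235 genes that could be tested kept its direction. These genes were called from the same libraries and did not overlap between the groups, so this outcome was largely fixed in advance. The scalings moved the median over all genes only to between −0.0564 and 0.0238, and the smallest called absolute log2 FC was 0.2082.

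**Figure D1:**
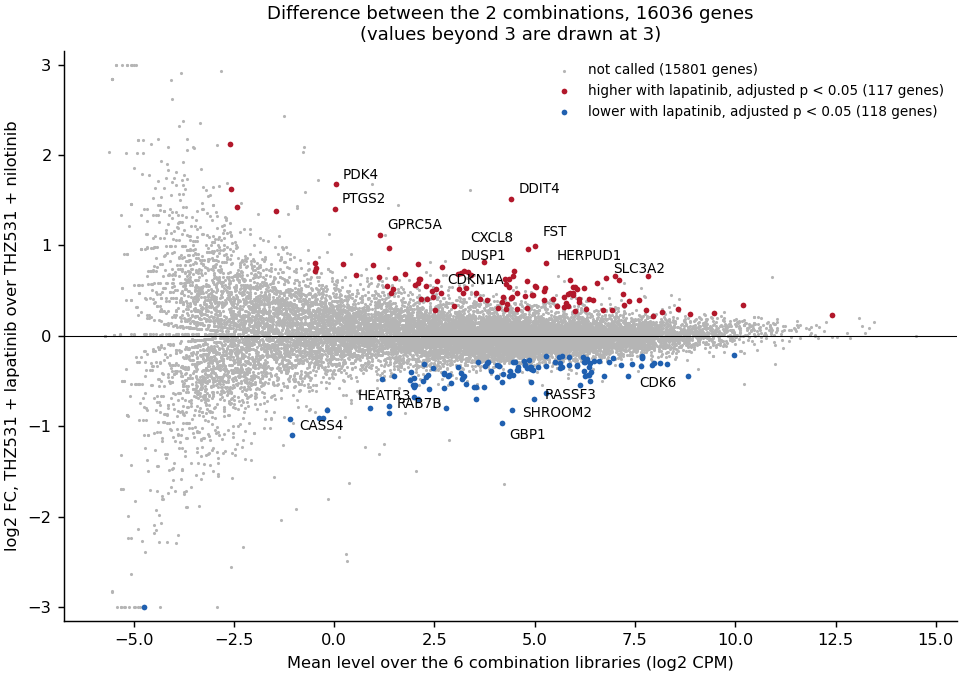
Log2 FC of THZ531 with lapatinib over THZ531 with nilotinib (vertical axis) against the mean level over the 6 combination libraries in log2 CPM (horizontal axis) for 16036 genes, with 117 genes called higher in red and 118 called lower in blue. Most called genes lie within 1 log2 unit of 0, and PDK4, DDIT4, PTGS2 and GPRC5A stand highest among the labelled genes.

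Promoters of 3 genes are shown first, 1 for each of 3 groups described below: HERPUD1 for protein folding stress, DUSP1 for the early response genes and GBP1 for the guanylate-binding protein (GBP) family. No list of interferon-inducible genes was tested. Each window runs from 250 bases before to 50 bases after the gene start and was taken from RefSeq on GRCh38.p14, 5′ to 3′ on the strand of the gene. HERPUD1 lies at chr16:56931892-56932191 on the plus strand, DUSP1 at chr5:172771146-172771445 on the minus strand and GBP1 at chr1:89065159-89065458 on the minus strand. Capitals mark a motif match: in HERPUD1 the ER stress response element II (ERSE-II, ATTGG and CCACG with any base between), in DUSP1 the cyclic AMP response element (CRE, TGACGTCA) and in GBP1 the interferon-stimulated response element (ISRE, GAAA repeated after any 2 bases), which is read there on the opposite strand.
HERPUD1: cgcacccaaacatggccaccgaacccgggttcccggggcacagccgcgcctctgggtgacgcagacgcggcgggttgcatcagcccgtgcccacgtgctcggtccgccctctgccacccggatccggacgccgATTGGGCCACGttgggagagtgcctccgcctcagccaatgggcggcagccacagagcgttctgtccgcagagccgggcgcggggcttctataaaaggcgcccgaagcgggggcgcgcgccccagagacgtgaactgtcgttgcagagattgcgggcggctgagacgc
DUSP1: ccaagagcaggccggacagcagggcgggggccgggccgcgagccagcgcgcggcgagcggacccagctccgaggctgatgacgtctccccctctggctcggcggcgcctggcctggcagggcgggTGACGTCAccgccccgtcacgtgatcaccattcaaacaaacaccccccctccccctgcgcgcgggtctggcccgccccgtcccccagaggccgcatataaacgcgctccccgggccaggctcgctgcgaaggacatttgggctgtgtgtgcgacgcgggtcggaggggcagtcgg
GBP1: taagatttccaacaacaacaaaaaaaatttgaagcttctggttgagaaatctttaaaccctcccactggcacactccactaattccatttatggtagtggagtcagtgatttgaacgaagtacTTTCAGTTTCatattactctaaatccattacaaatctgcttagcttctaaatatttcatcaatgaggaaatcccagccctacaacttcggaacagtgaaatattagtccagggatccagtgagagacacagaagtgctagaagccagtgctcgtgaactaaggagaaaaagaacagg
Both strands were searched, and no match overlapped another motif in these windows. The ERSE-II letters stood at bases 134 to 144 of the HERPUD1 window, the CRE at bases 126 to 133 of the DUSP1 window and the ISRE at bases 124 to 133 of the GBP1 window. Of 12271 tested genes with a promoter in the table, 0.0978% held ERSE-II, 3.12% the CRE and 2.86% the ISRE. Among the called genes with a promoter, ERSE-II was in 1 of 88 higher and 0 of 92 lower genes, the CRE in 4 of 88 and 2 of 92, and the ISRE in 4 of 88 and 8 of 92. Of 18 unfolded protein response genes, 3 held ERSE-II. A match describes the letters in the window and not a bound site.

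Protein folding stress in the endoplasmic reticulum activates the unfolded protein response, in which ATF6 and XBP1 raise chaperones and the machinery that disposes of misfolded proteins. Of 18 tested genes of this response, 3 were higher with lapatinib and none lower, against 0.73% of all genes higher, and 17 of 18 log2 FCs were above 0 with a median of 0.17. HERPUD1 (gene ID 9709) organises the degradation of misfolded proteins at the membrane of the endoplasmic reticulum. Its level was 50.5, 52.5 and 51.8 CPM with lapatinib and 32.4, 27.3 and 29.0 CPM with nilotinib. DNAJB9, a cochaperone of BiP, stood at 8.23, 8.96 and 7.86 CPM with lapatinib and at 4.67, 4.86 and 5.27 CPM with nilotinib. SYVN1, the ubiquitin ligase that HERPUD1 works with, was at 22.8, 30.6 and 30.7 CPM with lapatinib and 15.6, 18.4 and 19.3 CPM with nilotinib. None of the 3 genes overlapped between the groups, as was true of every called gene and of 14.2% of all genes, and their log2 FCs were 0.80 ± 0.173 (SE, adjusted p = 0.0236) for HERPUD1, 0.76 ± 0.141 (adjusted p = 0.00936) for DNAJB9 and 0.66 ± 0.122 (adjusted p = 0.0092) for SYVN1. Against DMSO, HERPUD1 was higher with lapatinib (log2 FC 0.40) and lower with nilotinib (−0.40), whereas DNAJB9 was lower in both combinations (−0.44 and −1.20), as was SYVN1 (−0.76 and −1.42). The span of SYVN1 overlaps that of MRPL49, which had a mean of 20.6 CPM without TMM over the 6 libraries. Unstranded reads of such a pair of genes cannot always be told apart. Relative to mitochondrially encoded mRNAs none of the 18 genes passed and 15 had a log2 FC above 0. None passed without lapatinib replicate 2 or nilotinib replicate 1, 1 did without lapatinib replicate 3, and HERPUD1 lost its call without any 1 library other than lapatinib replicate 1.

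A library outside the contrast moved with this group. Among the replicates of nilotinib alone, replicate 1 was high for stress genes, with HERPUD1 at 80.7 CPM against 42.8 and 42.4 in replicates 2 and 3, and with HSPA5, the chaperone BiP, at 2166 CPM against 998.7 and 1052. It adds to the spread that all groups share. Without it, a setting chosen after this was seen, 8 of the 18 genes were higher with the lapatinib combination and none lower, out of 143 higher and 122 lower genes in all. HSPA5 then passed (log2 FC 0.65, adjusted p = 0.000195), where it had missed in the fit of all libraries (adjusted p = 0.0905). Its level was 2078, 2684 and 2541 CPM with the lapatinib combination and 1660, 1487 and 1518 CPM with the nilotinib combination, and like 14.2% of all genes it did not overlap between the groups. XBP1, DNAJC3, DNAJB11 and MANF also passed in that fit.

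ATF4 directs the response to amino acid shortage and to other blocks of translation. Of 48 tested genes of the ATF4 response, 3 were higher and 0 lower, against 0.73% and 0.736% of all genes, and 33 had a log2 FC above 0 (median 0.10), as did 8242 of all 16036 genes. DDIT4 (gene ID 54541), a stress-induced inhibitor of mTORC1, had 36.0, 32.9 and 39.4 CPM with lapatinib and 11.4, 12.1 and 14.3 CPM with nilotinib, a log2 FC of 1.52 ± 0.286 (SE, adjusted p = 0.0102). All lapatinib values were more than 30 CPM and all nilotinib values below 15 CPM. SLC3A2, the heavy chain of amino acid transporters, had 128, 137 and 142 CPM with lapatinib and 89.0, 87.9 and 85.0 CPM with nilotinib (log2 FC 0.64 ± 0.125, adjusted p = 0.0134). ATF3, a stress-induced repressor, had 23.5, 28.1 and 25 CPM with lapatinib and 15.9, 17.3 and 16.5 CPM with nilotinib (log2 FC 0.63 ± 0.142, adjusted p = 0.0308). The amino acid enzymes and tRNA synthetases of the list did not pass, and their values ran from CARS1 at −0.57 over AARS1 at −0.04, PSAT1 at 0.06 and ASNS at 0.09 to MTHFD2 at 0.31. Leaving out replicate 1 of nilotinib alone, where DDIT4 stood at 19.8 CPM against 6.48 and 7.38, raised the count from 3 to 8, adding ATF4 itself (0.58), CHAC1, SLC7A5, CEBPB and GDF15. Leaving out replicate 3 of the lapatinib combination or replicate 2 of the nilotinib combination left none, leaving out lapatinib replicate 2 or nilotinib replicate 1 or 3 left 1, and leaving out lapatinib replicate 1 gave 5.

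**Figure D2:**
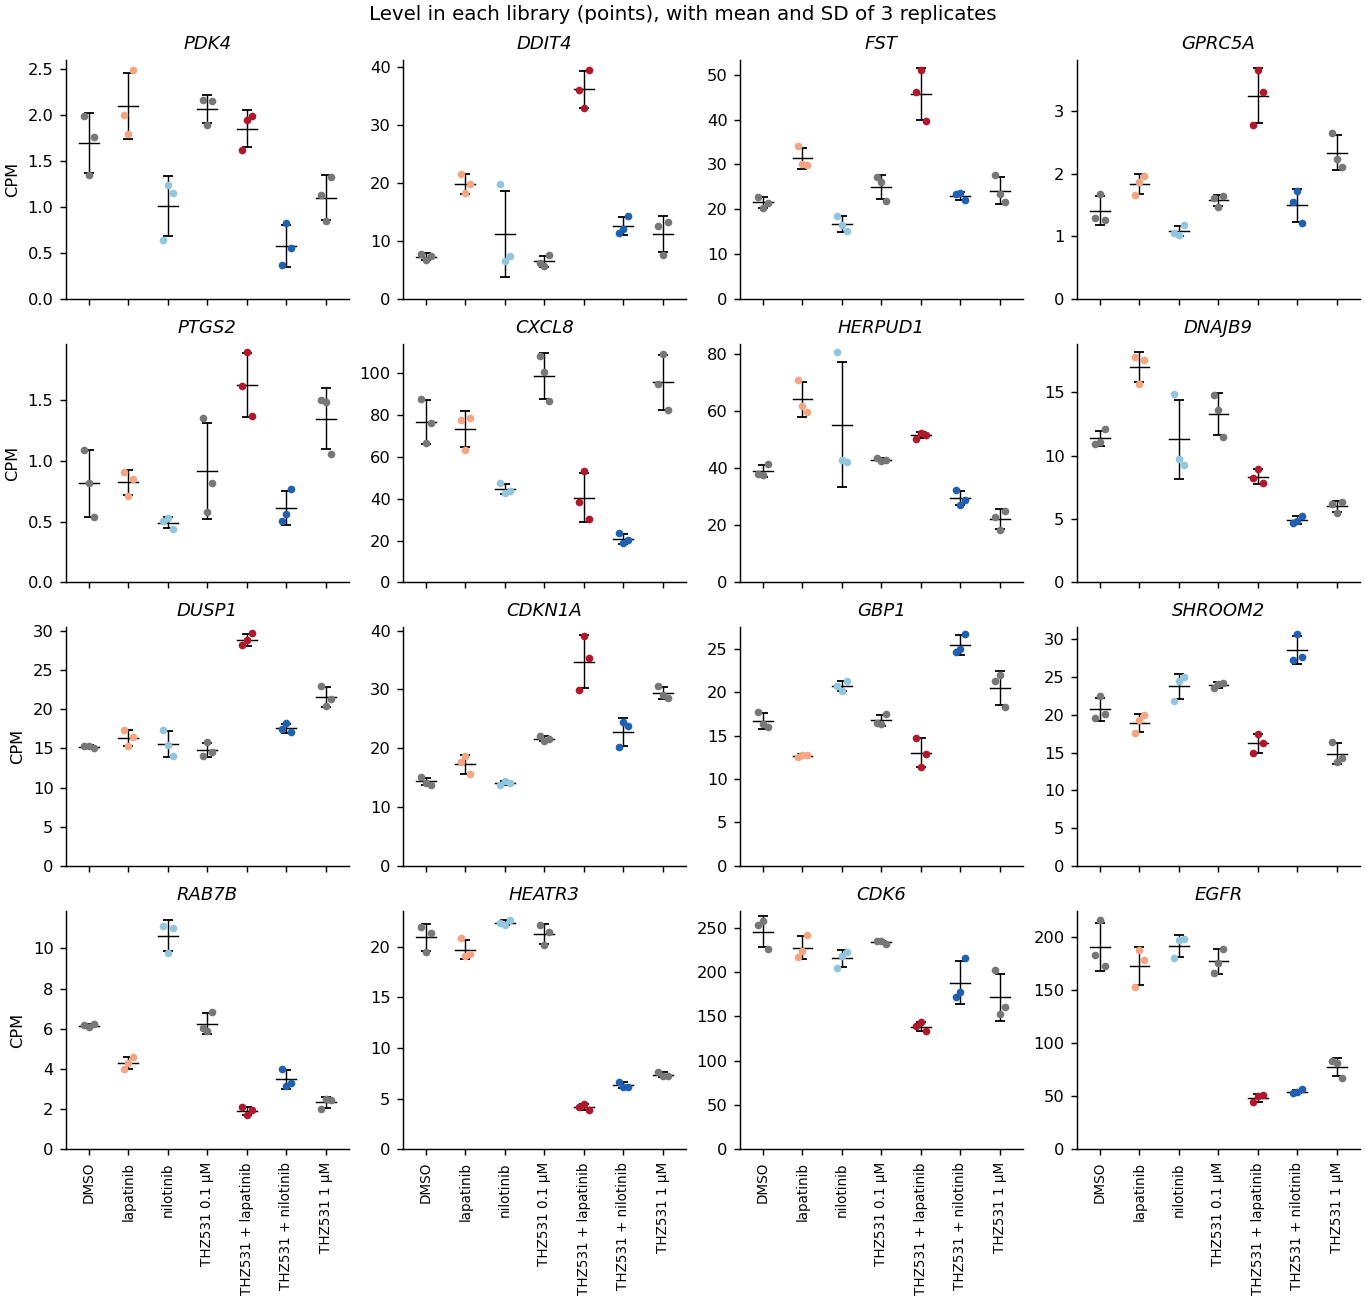
Level in CPM (vertical axes, from 0) of 16 genes in each of the 21 libraries, by treatment, with points for the 3 replicates and a black line and bar for mean and SD. The lapatinib combination (red) and the nilotinib combination (blue) do not overlap for any of the 16 genes, which include EGFR, shown as a gene that was not called. Replicate 1 of nilotinib alone stands above its other replicates for DDIT4, HERPUD1 and DNAJB9.

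Immediate-early genes are short genes switched on within minutes of a signal without new protein synthesis. Of 26 tested, 2 passed, against 1.47% of all genes, both higher with lapatinib: ATF3, given above, and ZFP36, which speeds the decay of inflammatory mRNAs. ZFP36 had 21.7, 27.2 and 26.1 CPM with lapatinib and 14.0, 17.9 and 19.8 CPM with nilotinib (log2 FC 0.54 ± 0.104, adjusted p = 0.0115). Over the list, 18 log2 FCs were above 0 and the median was 0.21, beside a median of 0.01 over all genes. FOS (0.36), EGR1 (0.32) and JUN (−0.16) did not pass. None of the 26 passed without lapatinib replicate 2 or 3 or nilotinib replicate 1, 1 passed without nilotinib replicate 2 or 3, and 4 passed without lapatinib replicate 1. DUSP1 (gene ID 1843), an early response gene outside the list that encodes a phosphatase of MAP kinases, gave a tight separation. It had 28.2, 28.8 and 29.7 CPM with lapatinib and 17.5, 18.2 and 17.1 CPM with nilotinib, with a log2 FC of 0.72 ± 0.0779 (adjusted p = 9.17e-05). DMSO lay at 15 to 15.3 CPM, and both combinations were above it, at log2 FCs of 0.93 with lapatinib and 0.21 with nilotinib.

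Among inflammatory and NF-kB genes, 3 of 18 were higher and none lower, against 0.73% of all genes higher. CXCL8 (gene ID 3576), the chemokine interleukin-8, had 38.5, 53.0 and 30.0 CPM with lapatinib and 23.4, 18.7 and 20.2 CPM with nilotinib (log2 FC 0.96 ± 0.162, adjusted p = 0.00449). PTGS2, which encodes the prostaglandin synthase COX-2, had 1.62, 1.89 and 1.37 CPM with lapatinib and 0.508, 0.562 and 0.770 CPM with nilotinib (1.41 ± 0.281, adjusted p = 0.0147). The third was IL11, a cytokine of the interleukin-6 family, with 6.75, 8.74 and 6.45 CPM against 4.71, 4.71 and 4.94 CPM (0.61 ± 0.138, adjusted p = 0.0285). CXCL8 and IL11 were below DMSO in both combinations, at log2 FCs of −0.92 and −0.89 with lapatinib and −1.88 and −1.50 with nilotinib, whereas PTGS2 was above DMSO with lapatinib (0.99) and not called against it with nilotinib (−0.41, adjusted p = 0.2). The other 15 genes of the list did not pass, with IL6 at 0.15, CCL2 at −0.49, TNFAIP3 at −0.42 and NFKBIA at −0.09. The higher calls fell from 3 to 1 without lapatinib replicate 2, which also brought 1 lower call, and to 1 without nilotinib replicate 1 or 2. Outside the list, the cytokine IL24 was also higher with lapatinib (0.97, adjusted p = 0.0134). So was TNFSF9, a TNF family ligand that costimulates T cells (0.72, adjusted p = 0.000676). IL24 had 4.12, 4.08 and 2.83 CPM against 2.39, 1.93 and 1.29 CPM, and TNFSF9 had 11.5, 12.3 and 12.5 CPM against 6.11, 7.37 and 8.53 CPM. The call of IL24 was lost without lapatinib replicate 2 or nilotinib replicate 3. That of TNFSF9 was kept whichever 1 of the combination libraries was left out. IL24 overlaps FCMR (mean 1.95 CPM without TMM over the 6 libraries), and their unstranded reads cannot always be told apart.

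Cell cycle entry from G1 is driven by cyclin D with CDK4 and CDK6 and held back by CDK inhibitors. Of 26 tested genes of this group, the CDK inhibitors CDKN1A (p21) and CDKN1B (p27) were higher with lapatinib, and CDK6 was lower, against 1.47% of all genes called. CDKN1A had 29.9, 39.0 and 35.3 CPM with lapatinib and 20.1, 24.5 and 23.7 CPM with nilotinib (log2 FC 0.61 ± 0.0918, adjusted p = 0.00216). CDKN1B had 45.6, 43.9 and 44.1 CPM with lapatinib and 30.7, 29.8 and 33.9 CPM with nilotinib (0.50 ± 0.0921, adjusted p = 0.00887). CDK6 had 139.6, 143 and 133 CPM with lapatinib and 171, 178 and 216 CPM with nilotinib, a log2 FC of −0.44 ± 0.0938 (adjusted p = 0.0229). Both inhibitors were above DMSO in both combinations, at 1.28 and 0.67 for CDKN1A and 0.71 and 0.21 for CDKN1B, and CDK6 was below it (−0.83 and −0.38). The call of CDK6 was lost without lapatinib replicate 2 or 3 or nilotinib replicate 3, and that of CDKN1B without nilotinib replicate 2. The cyclins CCND1 (−0.16) and CCNE1 (0.42) and the transcription factor E2F1 (0.15) did not pass.

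Several of the largest differences fell outside these groups. PDK4 (gene ID 5166), a mitochondrial kinase that switches off pyruvate dehydrogenase, had 1.62, 1.95 and 1.99 CPM with lapatinib and 0.367, 0.821 and 0.550 CPM with nilotinib (log2 FC 1.67 ± 0.267, adjusted p = 0.0032). DMSO lay at 1.35 to 1.98 CPM, and the nilotinib combination was below it (−1.55), while the lapatinib combination was not called against it (0.13). GPRC5A, an orphan receptor known to respond to retinoic acid, had 2.79, 3.65 and 3.31 CPM with lapatinib and 1.54, 1.73 and 1.21 CPM with nilotinib (1.12 ± 0.152, adjusted p = 0.000771). FST (gene ID 10468), the secreted activin antagonist follistatin, had 46.2, 51.2 and 39.6 CPM with lapatinib and 23.4, 23.6 and 22.0 CPM with nilotinib (0.99 ± 0.110, adjusted p = 9.31e-05). The nilotinib values of FST were close to the 20.4 to 22.7 CPM of DMSO. Among metabolic and hypoxia genes, the sterol sensor INSIG1 (0.48), haem oxygenase HMOX1 (0.55), the glucose transporter SLC2A1 (0.29) and VEGFA (0.45) passed. VEGFA did so narrowly (adjusted p = 0.04999), and it missed with the replicate number as a block (adjusted p = 0.0510). VEGFA and HMOX1 lost their calls without any 1 library other than lapatinib replicate 1, and SLC2A1 without lapatinib replicate 2 or 3 or nilotinib replicate 1 or 3.

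Of 33 sterol and fatty acid genes INSIG1 alone passed, and of 24 hypoxia and glycolysis genes SLC2A1 and VEGFA, against 1.47% of all genes. Low-count genes among those beyond 1 log2 unit were LOC101928093, FRAS1, ACTRT3 and ZNF497-AS1, each of which lost its call in at least 4 of the 6 fits without 1 combination library. LOC101928093 had 15, 39 and 33 counts with lapatinib and 5, 11 and 4 with nilotinib, and lies at chr5:172755503-172762562, near DUSP1 at chr5:172768096-172771195. EID3 (0.82) lies inside TXNRD1, which was not called (−0.03), and had 15.5, 19.1 and 18.7 CPM with lapatinib and 8.11, 11.6 and 10.4 CPM with nilotinib, against 0.112 to 0.226 CPM in DMSO. Because the counting did not use strand, reads of such neighbours and overlapping genes cannot always be told apart. The same limit applies to INSYN2B, named below, which overlaps DOCK2 (mean 5.7 CPM without TMM over the 6 libraries).

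The most firmly separated gene of all was lower with lapatinib. GBP1 (gene ID 2633), an interferon-inducible GTPase, had 14.8, 11.4 and 12.9 CPM with lapatinib and 24.6, 25 and 26.7 CPM with nilotinib, a log2 FC of −0.96 ± 0.0860 (adjusted p = 1.08e-05). DMSO lay between them at 16 to 17.8 CPM: the lapatinib combination was below DMSO (−0.36, adjusted p = 0.000972) and the nilotinib combination above it (0.61, adjusted p = 2.53e-06). The family was then looked up, a choice made after these values were seen. GBP2 had 6.95, 5.24 and 6.55 CPM with lapatinib and 8.81, 8.91 and 9.25 CPM with nilotinib (−0.53, adjusted p = 0.0147), and GBP3 had 28.3, 22.7 and 24.7 CPM against 38.9, 32.8 and 35.7 CPM (−0.50, adjusted p = 0.00411). GBP4 (0.06), GBP5 (−0.05) and GBP7 (−0.18), all under 1 CPM, did not pass. GBP1, GBP2 and GBP3 are related neighbours on chromosome 1, and whether the counting shared any reads among them was not tested. The JAK, STAT and SOCS list, which holds the interferon pathway's own signal transducers, had 0 of 13 genes called, against 1.47% of all genes. STAT2 was at −0.11.

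The other genes with large differences toward nilotinib have varied roles. SHROOM2, an actin-binding protein of cell junctions, had 15, 17.5 and 16.3 CPM with lapatinib and 27.3, 30.8 and 27.7 CPM with nilotinib (log2 FC −0.82 ± 0.0863, adjusted p = 8.71e-05). RAB7B, a small GTPase of endosomal transport, had 2.12, 1.72 and 1.95 CPM against 4.01, 3.14 and 3.30 CPM (−0.85 ± 0.117, adjusted p = 0.000831). RIPK4, a kinase of epithelial differentiation and NF-kB signalling, had 29.0, 32.3 and 32.4 CPM against 48.4, 48.2 and 48.1 CPM (−0.63 ± 0.120, adjusted p = 0.0112). For SHROOM2 the lapatinib combination was below DMSO (−0.35) and the nilotinib combination above it (0.46), whereas RIPK4 and RASSF3, a member of the RAS association family, were above DMSO with nilotinib (0.78 and 0.60) and not called against it with lapatinib (0.16 and −0.09).
CARD10, a scaffold that carries receptor signals to NF-kB, had 7.89, 10.3 and 9.24 CPM with lapatinib and 13.5, 15.8 and 15 CPM with nilotinib (−0.69 ± 0.104, adjusted p = 0.0021). HEATR3, which escorts a ribosomal protein into the nucleus, had 4.23, 4.50 and 3.92 CPM against 6.69, 6.14 and 6.20 CPM (−0.59 ± 0.0746, adjusted p = 0.000476). Both were below DMSO in both combinations and further below it with lapatinib, at −1.89 and −2.31 against −1.20 and −1.72. TNFAIP8 (−0.79), SH3RF2 (−0.77), SH3BP5 (−0.67), DDX52 (−0.69), INSYN2B (−0.58) and CASS4 (−1.10) were lower as well. CASS4 lost its call whenever any 1 of the 6 libraries was left out, DDX52 with any but lapatinib replicate 2, and TNFAIP8 without lapatinib replicate 3. GRM8 passed on 0 counts in all 3 lapatinib libraries and 7, 8 and 2 with nilotinib, and missed with the replicate number as a block (adjusted p = 0.0622).

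The targets of the drugs differed little at the RNA level. EGFR had 44.4, 50.4 and 50.7 CPM with lapatinib and 53.2, 53.6 and 56.5 CPM with nilotinib (log2 FC −0.17 ± 0.0961, adjusted p = 0.53), and was far below DMSO in both (−1.97 and −1.81). ERBB2 gave 0.00 ± 0.113, ABL1 −0.14 ± 0.164, DDR2 0.04 ± 0.0910, PDGFRB 0.06 ± 0.108 and CDK13 0.00 ± 0.169. DDR1 had 0 counts in all 6 libraries and was not tested. CDK12 had 10.7, 14.5 and 13.3 CPM with lapatinib and 14.1, 16.8 and 18.7 CPM with nilotinib (−0.37 ± 0.144, adjusted p = 0.255), and it passed only when the 6 libraries were fitted alone with the replicate number as a block (adjusted p = 0.0083). ABCG2, the drug efflux pump that is central to the study, had 31.4, 24.5 and 24.9 CPM against 32.0, 26.7 and 24.7 CPM (−0.05 ± 0.117, adjusted p = 0.934).
ERK signalling, downstream of EGFR, is read from genes such as the DUSP, SPRY and ETV families. Of 19 tested, 0 were higher and 2 lower with lapatinib, against 0.736% of all genes lower, and 6 log2 FCs were above 0 with a median of −0.20, which was −0.09 without lapatinib replicate 1 or nilotinib replicate 3. These were ETV5, a transcription factor of the ETS family (−0.23, adjusted p = 0.0377), and the lipid kinase SPHK1 (−0.34, adjusted p = 0.0311). ETV5 had 35.4, 36.4 and 35.6 CPM with lapatinib and 41.6, 40.6 and 43.4 CPM with nilotinib, and lost its call whenever 1 of these libraries was left out. SPHK1 lost it too without lapatinib replicate 2 or 3 or nilotinib replicate 1 or 2. DUSP6 (0.24), SPRY4 (−0.30) and CCND1 (−0.16) did not pass. Among 16 ERBB receptors, ligands and feedback inhibitors, 1 was higher, against 0.73% of all genes. This was CBLB, a ubiquitin ligase of activated receptors (0.39, adjusted p = 0.0397). It lost its call without any 1 library other than lapatinib replicate 1. None of 11 nilotinib target kinases and ligands and none of 25 ABC transporters passed, against 1.47% of all genes.

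Homologous recombination and Fanconi genes are those most often cited as CDK12 dependent. Of 30 tested, ATM alone passed, lower with lapatinib (log2 FC −0.29 ± 0.0697, adjusted p = 0.038), against 0.736% of all genes lower. Of the 30 log2 FCs, 7 were above 0 (median −0.09), beside 8242 of all 16036 genes. ATM had 80.3, 70.4 and 74.0 CPM with lapatinib and 91.5, 87.8 and 96.4 CPM with nilotinib, and both combinations were above DMSO (0.29 and 0.58). Its call was lost without lapatinib replicate 2 or 3 or any 1 of the nilotinib libraries. BRCA1 (−0.15), BRCA2 (−0.05) and FANCD2 (−0.15) did not pass. The other lists gave 1 of 16 NRF2 targets higher (HMOX1), against 0.73% of all genes. They gave 0 calls among 34 lysosome and autophagy genes, 28 extracellular matrix genes and 15 genes of the BCL2 family, against 1.47% of all genes. There were also 0 among 16 transcriptional CDKs and cyclins, 8 aryl hydrocarbon receptor genes, 7 MondoA genes and 6 LXR targets. In the lysosome list 29 of 34 log2 FCs were above 0 (median 0.09), or 20 relative to mitochondrially encoded mRNAs.

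**Figure D3:**
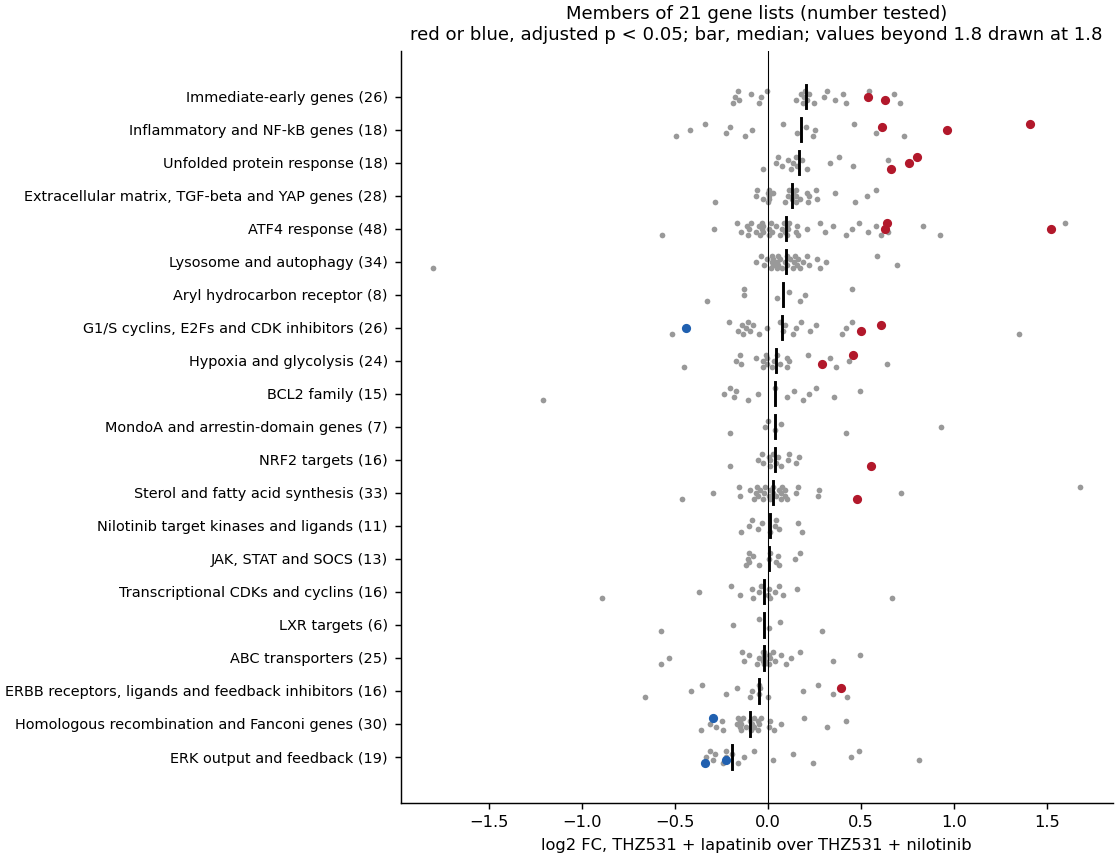
Log2 FC of THZ531 with lapatinib over THZ531 with nilotinib (horizontal axis) for the tested members of 21 gene lists (rows, number tested in brackets), with called genes in red (higher) or blue (lower) and a bar at each median. The medians run from −0.20 for ERK output, which 1 library moves to −0.09, to 0.21 for immediate-early genes, and no list has more than 3 called members.

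The genes called between the combinations were also placed against DMSO. Of the 117 genes higher with lapatinib, 37 were above DMSO in both combinations and 40 below it in both, and 2 were above DMSO in one and below it in the other. Of the 118 lower genes, 77 were below DMSO in both, 10 above it in both and 3 on opposite sides. Against DMSO, 34.3% of all genes were above and 37.8% below with the lapatinib combination, and 33.7% and 37.3% with the nilotinib combination. The share of all genes on the same side of DMSO in both combinations was not counted. The counts above therefore cannot be read as particular to the called genes. THZ531 (1 μM) served as a yardstick. The 925 genes (5.77%) that it raised by more than 1 log2 unit had a median log2 FC of 0.21 between the combinations. Of them, 9 (0.973%) were called higher and 0 lower, beside 0.73% and 0.736% of all genes. The medians in the 3 replicate pairs were 0.17, 0.14 and 0.24. The 3027 genes (18.9%) that it lowered by more than 1 log2 unit had a median of −0.02, with 24 (0.793%) higher and 38 (1.26%) lower. Their pairs gave −0.03, 0.07 and −0.11. Against DMSO, the raised genes stood at medians of 2.00 with lapatinib and 1.77 with nilotinib, and the lowered genes at −1.71 and −1.70. The 488 zinc finger (ZNF) genes had a median of 0.03 between the combinations.

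Gene length separated the higher from the lower calls. The genes higher with lapatinib spanned a median of 5.57 kb of the genome and the lower ones 65.9 kb, beside 27.8 kb for all genes tested. In the shortest quintile of genes, up to 7.72 kb, 74 (2.33%) were higher and 3 (0.0946%) lower, beside 0.73% and 0.736% of all genes. In the longest quintile, from 90.3 kb, 6 (0.189%) were higher and 47 (1.48%) lower. The median log2 FC ran from 0.11 in the shortest quintile over 0.03 and −0.01 to −0.04 in the fourth quintile and −0.04 in the longest. Replicate pairs gave 0.08, 0.06 and 0.18 for the shortest quintile and −0.03, 0.01 and −0.10 for the longest, so the second pair showed no difference of the same sign for long genes. Without nilotinib replicate 3 the median of the longest quintile was −0.0082.
The same order held within protein-coding genes, with 66 higher and 3 lower in the shortest quintile and 6 higher and 46 lower in the longest. It also held within genes that THZ531 (1 μM) did not move by more than 1 log2 unit, at 54 and 3 and at 5 and 31. The median log2 CPM of the shortest quintile minus that of the longest was −2.55, −2.63 and −2.50 with lapatinib and −2.75, −2.78 and −2.82 with nilotinib, without overlap, beside −3.17 to −3.09 in DMSO and −2.83 to −2.64 with THZ531 (1 μM). An exact permutation test of 3 against 3 libraries cannot give a p below 0.1, so none is given. Genes over 100 kb took 11.9%, 13.3% and 12.8% of counts with lapatinib and 12.5%, 13.4% and 14.1% with nilotinib. The groups overlap, and the lapatinib library had the lower share in each of the 3 pairs. Several of the groups above consist of short genes, with a median span of 4.71 kb for the immediate-early genes, 7.72 kb for the inflammatory and 12.9 kb for the unfolded protein response genes, while the homologous recombination genes had 77.3 kb. The part of gene length in the group results was not tested.

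**Figure D4:**
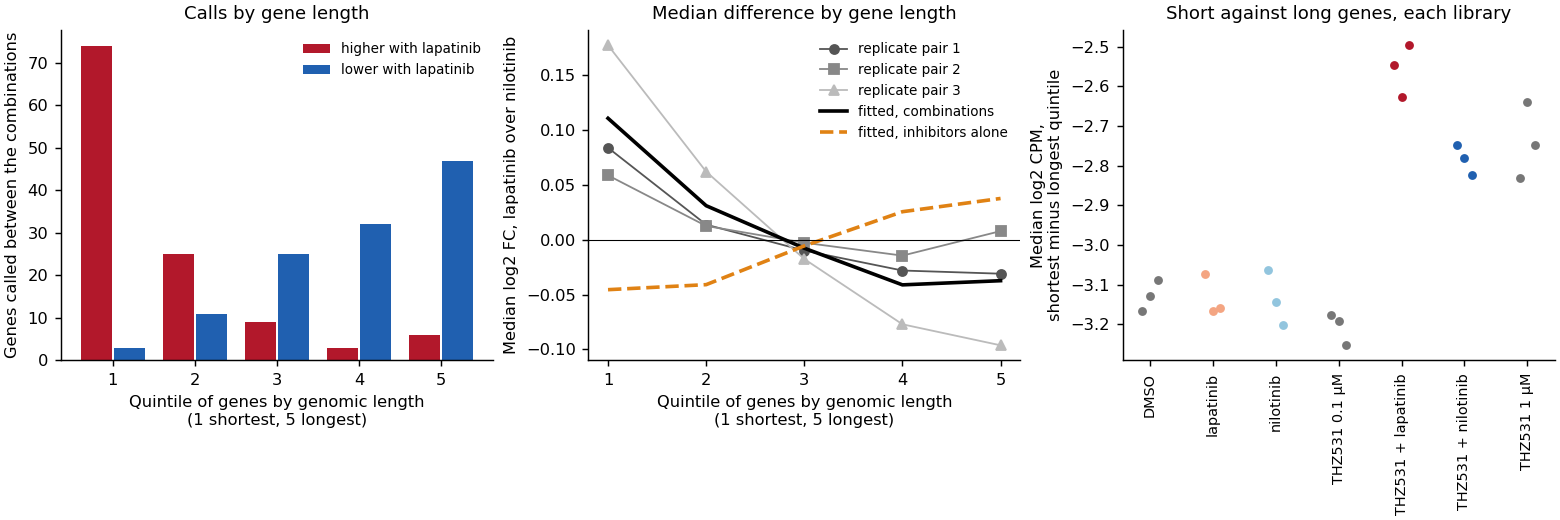
Left, number of genes called higher (red) or lower (blue) with lapatinib by quintile of genomic length. Middle, median log2 FC by quintile for each replicate pair, the fit of the combinations and the fit of the inhibitors alone. Right, median log2 CPM of the shortest quintile minus the longest quintile in each library. Calls go from 74 higher and 3 lower in the shortest quintile to 6 higher and 47 lower in the longest, and the 3 lapatinib combination libraries lie above the 3 nilotinib combination libraries.

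Lapatinib alone against nilotinib alone, which shares no library with the combinations, shows which differences were present without THZ531. It gave 145 genes (0.904%), 57 higher and 88 lower with lapatinib. Of the 235 genes called between the combinations, 28 were called there too, all in the same direction, which is 11.9% of the calls between the combinations and 19.3% of those between the inhibitors alone. The log2 FCs had the same sign in 80.9% of the 235 genes and in 52.2% of all genes. Across all genes, which are not independent replicates, Pearson's r was 0.06 and Spearman's rho 0.11. GBP1 had 12.5, 12.8 and 12.7 CPM with lapatinib alone and 20.7, 20.2 and 21.3 CPM with nilotinib alone, a log2 FC of −0.71 ± 0.0855 (adjusted p = 0.000274) beside −0.96 between the combinations. FST had 34.1, 30.1 and 30.0 CPM against 18.6, 16.4 and 15.2 CPM (0.91 ± 0.110, adjusted p = 0.000274) beside 0.99. RAB7B (−1.30), SPHK1 (−0.76), INSIG1 (0.64), CXCL8 (0.71), GPRC5A (0.76), DNAJB9 (0.59), SH3RF2 (−0.40) and CBLB (0.40) passed in both contrasts. Of the 33 sterol and fatty acid genes, 8 were higher between the inhibitors alone, against 0.355% of all genes, and 1 between the combinations, against 0.73%. No gene of the list passed the test of the difference between the contrasts, and the list itself was not tested for it.

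DUSP1 did not follow this pattern in value. It had 17.3, 15.3 and 16.5 CPM with lapatinib alone and 17.3, 15.4 and 14.1 CPM with nilotinib alone (log2 FC 0.07 ± 0.0777, adjusted p = 0.813), beside 0.72 between the combinations. The difference of the contrasts, 0.65 ± 0.110, had the lowest p of all genes and missed the threshold after adjustment (adjusted p = 0.151). No gene passed this test of the difference in edgeR, with 1580 genes (9.85%) at an unadjusted p under 0.05. DESeq2 called 81 genes and edgeR on the 12 libraries with the replicate number as a block 50, of which 26 were called by both in the same direction. DUSP1 passed in both (adjusted p = 0.000308 and 0.0311), as did ATM (0.00563 and 0.037), CDK6 (0.0495 and 0.0378) and SHROOM2 (0.0252 and 0.0378). Between the inhibitors alone, ATM had a log2 FC of 0.19 beside −0.29 between the combinations, so its sign was reversed. CDK6 had 0.08 beside −0.44 and SHROOM2 −0.33 beside −0.82. None of these genes was called between the inhibitors alone. For HERPUD1, DDIT4 and the other stress genes the comparison of the inhibitors alone rests on the 3 nilotinib libraries of which replicate 1 stood apart, and DDIT4 had 21.6, 18.2 and 19.8 CPM with lapatinib alone. By length, the fitted median log2 FC between the inhibitors alone was −0.05 in the shortest quintile and 0.04 in the longest. The median log2 CPM of the shortest minus the longest quintile overlapped between them, at −3.07, −3.17 and −3.16 with lapatinib and −3.06, −3.14 and −3.20 with nilotinib.

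**Figure D5:**
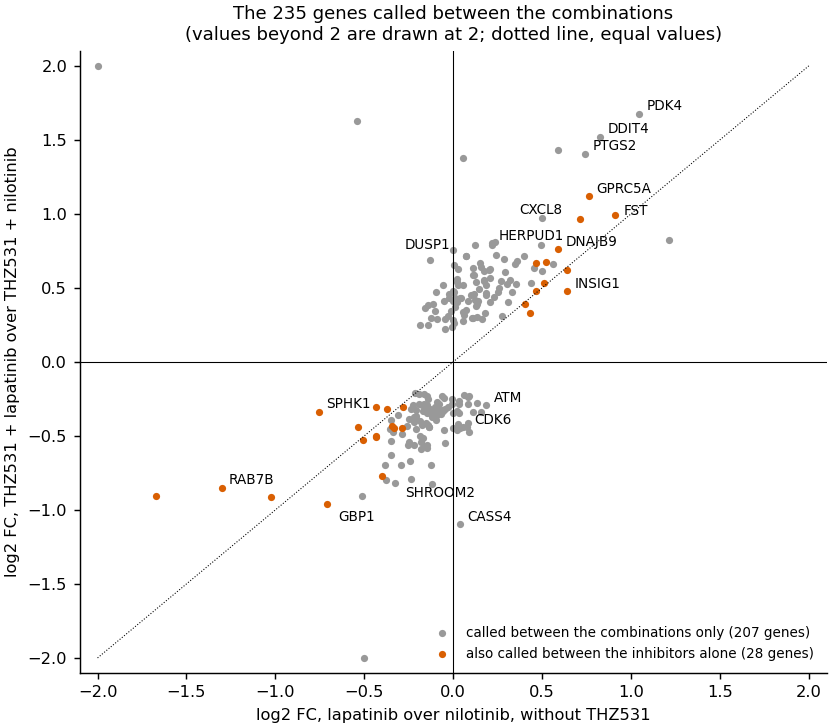
Log2 FC of lapatinib over nilotinib without THZ531 (horizontal axis) against log2 FC of the lapatinib combination over the nilotinib combination (vertical axis) for the 235 genes called between the combinations, with the 28 genes called in both contrasts in orange. FST and GBP1 lie near the dotted line of equal values, and DUSP1 and CDK6 lie near 0 on the horizontal axis. ATM lies at 0.19 on the horizontal axis and at −0.29 on the vertical axis.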

How the data were processed

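Polyadenylated RNA of Hs578T cells was sequenced as unstranded 100-bp paired-end reads. The authors deposited raw counts per gene, made with HISAT2 2.1.0, featureCounts and GRCh38 according to the submitters' processing notes. Whether pairs or single ends were counted is not given in the sources used here, and 61.6% to 64.2% of the counts from 1 to 20 in the combination libraries were even. Columns were matched to samples by name. Replicate numbers come from the labels, and the study describes independent experiments.

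Counts were tested in edgeR 4.0.16 (R 4.3.3): filterByExpr, TMM, glmQLFit with 1 mean for each of 7 groups over 21 libraries, glmQLFTest and Benjamini-Hochberg adjustment over 16036 genes, called at adjusted p under 0.05. DESeq2 1.42.0 was an alternative. Names and spans came from RefSeq (27745 of 28395 genes matched), and promoters from RefSeq (44 of 56 named genes). Intervals are standard errors of the fit. Same-numbered libraries deviated together over 10913 genes (correlation 0.806, 0.415 and 0.330 in the combinations, and 0.506, 0.142 and 0.345 for the inhibitors alone). Lapatinib replicate 2 correlated more with nilotinib replicate 3, at 0.636 in the combinations and 0.401 for the inhibitors alone. These values thus show a clear pairing for replicate 1 only. The numbers of the labels were still used wherever pairs or a block are given. On simulated counts for the contrast of the combinations (15559 genes, 100 changed by 0.5 and 100 by 1 log2 unit), 67 and 97 were recovered with 6 false calls. For the difference of the contrasts, 29 and 84 were recovered with 3 false calls. The changed genes were drawn only from genes above a minimum level, and the simulated libraries held no replicate effect.

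Genes were named by a rule: the 12 largest differences in each direction at a mean log2 CPM of at least 1 without overlap, every call beyond 1 log2 unit, up to 4 called members of each list and the drug targets. The groups compared, this rule and the gene lists were chosen with earlier results of these data known. Genes named outside the rule are examples, chosen after their values were seen.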

Additional observations from a re-analysis of the deposited data

How the results depend on the processing

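Between the combinations, 117 genes were higher and 118 lower. These counts became 10 and 12 with scaling to the mitochondrially encoded mRNAs, 259 and 240 with DESeq2, 4 and 1 in the 6 libraries alone, 476 and 403 there with the replicate block, and 46 and 50 without replicate 1 of both combinations, and the lower genes 206 with library size alone. Leaving out 1 library gave 29 to 185 higher and 31 to 173 lower. The replicate block over all 21 libraries gave 146 and 160, 231 of the 235 calls were among them, and of the calls listed by the naming rule it ended those of VEGFA and GRM8. Beyond 1 log2 unit, the 8 higher genes became 4 (mitochondrial scaling), 1 (6 libraries alone), 16 (with the replicate block) and 5 (without both replicates 1), and 3 to 13 with 1 library left out. The 2 lower genes became 1 (DESeq2 size factors), 4 (library size), 4 (no filter), 1 (at least 10 counts), 1 (halved counts), 4 (DESeq2), 0 and 13 (6 libraries without and with the replicate block), and 0 to 5 with 1 library left out.
Between the inhibitors alone, 57 higher and 88 lower genes became 6 and 10 (mitochondrial scaling), 155 and 266 (DESeq2) and 484 and 523 (6 libraries with the replicate block), the lower genes 52 without it, and 13 to 66 and 25 to 48 with 1 library left out. The difference of the contrasts gave 0 genes except with DESeq2 (49 and 32) and the 12 libraries with the replicate block (37 and 13). The median of the raised genes, 0.21, was 0.29 for those beyond 2 log2 units and 0.16 to 0.24 with 1 library left out. The median of the shortest quintile, 0.11, was 0.0465 with mitochondrial scaling and 0.0363 with no filter, and that of the longest, −0.04, was −0.0961 with mitochondrial scaling and −0.0566 to −0.0082 with 1 library left out. The cause of these shifts was not tested. The 6-library fits, the set without both replicates 1 and that without replicate 1 of nilotinib alone were chosen after seeing the data.
At this depth and number of replicates, 67 of 100 simulated differences of 0.5 log2 units were recovered between the combinations. In the difference of the contrasts 29 of 100 were recovered, so smaller differences were often not detectable. The simulation changed no low-level gene and held no replicate effect, whereas replicate 1 stood apart in the real libraries. Recovery in the real data may therefore differ.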

Other observations

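Some groups outside the lists were looked up after their values were seen. Activin is a secreted ligand of the TGF-beta family that follistatin (FST) and FSTL3 bind and neutralise. Besides FST, FSTL3 was higher with the lapatinib combination, at 77.7, 82.8 and 76.4 CPM against 58.4, 54.9 and 52.2 CPM (log2 FC 0.52 ± 0.0814, adjusted p = 0.00299). The activin subunit gene INHBA was higher too, at 60.9, 79.2 and 61.2 CPM against 50.1, 48.7 and 47.7 CPM (0.46 ± 0.102, adjusted p = 0.026), while INHBB gave 0.18 and did not pass. Between the inhibitors alone FST passed, and FSTL3 (0.06) and INHBA (0.12) did not.

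Metallothioneins bind zinc and copper. Of 5 tested, MT2A and MT1X were higher with the lapatinib combination, against 0.73% of all genes. MT2A had 1221, 1422 and 1335 CPM against 994.9, 1128 and 1017 CPM (0.34 ± 0.0797, adjusted p = 0.0358), and MT1X had 183.9, 197.9 and 179 CPM against 133.7, 142.6 and 153.2 CPM (0.38 ± 0.0932, adjusted p = 0.0433). MT1M (0.34), MT1E (0.28) and MT1G (−0.09) did not pass. Between the inhibitors alone the values of MT2A and MT1X were −0.10 and −0.14, and neither passed.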
